A study of Rattus norvegicus with 11 samples.

Results

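The cholesterol synthesis genes Hmgcs1, Idi1, Fdps, Fdft1, Sqle, Lss, Cyp51 and Dhcr7 were followed while rat embryonic stem cells were converted into hypoblast stem cells. The 8 genes were taken by name from the pathway, with earlier results of these data known. Of them, 7 had a named row among the 14506 genes measured. Hmgcs1 had none and is not analysed here beyond its promoter. The cells were the rat embryonic stem cell line DAc2, read on 11 Affymetrix Rat Gene 1.0 ST arrays, a whole-transcript array hybridised with labelled total RNA. The study compared 2 starting cultures. Feeder-free cells grew on laminin in N2B27 medium, a serum-free base, with the GSK3 inhibitor CHIR99021 at 3 µM, the MEK inhibitor PD0325901 at 2 µM and human BMP4 at 5 ng/mL. Feeder-dependent cells, the feeder arm, grew on mouse embryonic fibroblasts in N2B27 with the same inhibitors, CHIR99021 at 3 µM and PD0325901 at 0.5 µM. Every sample after day 0, from either start, was in conversion medium, the medium used for rat multipotent adult progenitor cells, to which the growth factors LIF, EGF and PDGF and 2% of fetal bovine serum are added. Arrays were made on days 0, 7, 17 and 32. The feeder-free arm had 1 array on day 0 and 2 on each later day, and the feeder arm had 1 array a day. All samples come from the same cell line, so the data describe that line. The labels number the feeder-free arrays as biological replicates but do not say that they were separate cultures, so p-values measure only the spread between these arrays. They also do not say whether fibroblasts were still present after day 0. Below, "on feeders", "with feeders" and "without feeders" name the starting culture of an arm, on every day.

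Cholesterol is built from acetyl-CoA through mevalonate. Hmgcs1 acts before mevalonate, Idi1 and Fdps build farnesyl diphosphate, Fdft1 and Sqle make squalene and its epoxide, Lss closes the sterol ring to lanosterol, and Cyp51 and Dhcr7 act on the way from lanosterol to cholesterol. The transcription factor SREBP-2, encoded by Srebf2, activates most of these genes when sterols are low; SCAP escorts it to the Golgi, and the INSIG proteins hold it back when sterols are plentiful. Cells can also take cholesterol up from lipoproteins, which serum contains.

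The promoters of 6 of the 8 genes were found in RefSeq's table for the rat build GRCr8, which gives 250 bases before and 50 after the start of each gene; Sqle and Fdft1 were not in it. Those of Idi1, Fdps and Cyp51, whose transcripts fell by day 7, and of Lss, whose transcript did not pass the test, are shown because they let the sequence be set beside the measured change. They run from 5′ to 3′ on the strand of the gene. Capitals mark CCAAT, the letters bound by NF-Y, and TCACNCC, the core of a sterol response element, each searched on both strands with no overlap between them. The regions are chr17:66547475-66547774 on the minus strand for Idi1, chr2:176804767-176805066 on the minus strand for Fdps, chr20:12118181-12118480 on the minus strand for Lss and chr4:30991443-30991742 on the plus strand for Cyp51.
Idi1: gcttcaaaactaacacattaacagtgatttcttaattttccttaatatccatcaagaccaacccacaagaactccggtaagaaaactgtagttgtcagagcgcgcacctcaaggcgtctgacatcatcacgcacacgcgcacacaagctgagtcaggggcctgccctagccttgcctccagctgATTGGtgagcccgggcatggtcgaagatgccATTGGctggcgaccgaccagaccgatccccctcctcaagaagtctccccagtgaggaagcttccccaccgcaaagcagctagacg
Fdps: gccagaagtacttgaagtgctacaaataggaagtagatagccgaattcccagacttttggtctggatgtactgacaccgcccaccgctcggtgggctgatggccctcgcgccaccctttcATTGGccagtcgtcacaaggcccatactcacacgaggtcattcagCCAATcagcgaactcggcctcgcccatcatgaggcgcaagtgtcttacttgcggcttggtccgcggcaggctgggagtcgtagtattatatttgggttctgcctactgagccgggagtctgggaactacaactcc
Lss: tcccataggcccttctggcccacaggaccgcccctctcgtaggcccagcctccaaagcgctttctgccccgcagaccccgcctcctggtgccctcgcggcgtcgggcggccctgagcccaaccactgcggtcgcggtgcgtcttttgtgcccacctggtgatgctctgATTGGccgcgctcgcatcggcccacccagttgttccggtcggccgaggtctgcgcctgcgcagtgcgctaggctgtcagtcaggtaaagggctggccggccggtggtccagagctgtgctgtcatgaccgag
Cyp51: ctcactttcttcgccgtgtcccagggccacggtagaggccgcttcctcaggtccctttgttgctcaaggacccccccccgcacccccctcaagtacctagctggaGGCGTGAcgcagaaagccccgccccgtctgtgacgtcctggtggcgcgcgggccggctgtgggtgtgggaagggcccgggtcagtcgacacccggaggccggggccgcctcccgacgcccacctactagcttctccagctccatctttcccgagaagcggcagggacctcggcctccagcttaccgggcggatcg

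In these windows Idi1 held CCAAT at -66 and -35 from the start and Fdps at -130 and -85, while Lss held it at -82. Cyp51 had no CCAAT and was the only one of the 6 with TCACNCC, at -145. CCAAT was present in 4 of the 6 promoters (Hmgcs1, Idi1, Fdps and Lss), against 37.5% of the 33469 promoters in the table, and TCACNCC in 1 of 6, against 14.6%. The GC box GGGCGG, searched on both strands, was in 5 of 6 (all but Idi1), against 33.1%, and the E-box CACGTG in 0 of 6, against 6.42%. Such a match is a description of the letters, not of binding. Dhcr7, which fell most in the fit over both cultures, had neither CCAAT nor TCACNCC in its window, and Lss, which did not pass the test for a fall, had CCAAT.

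Values are log2 probe set levels, so 1 unit is a doubling. Every member value, the lowest being 10.56, lay above 7.90, the 95th percentile of 186 receptor genes of the nose that are mostly silent in other cells. The 11 arrays shared a median of 8.97, and the feeder-free pairs correlated at 0.997 to 0.998 over all genes. The arrays carry the labelled change of state. The mean of 10 hypoblast markers, among them Gata4, rose in the feeder-free arm from 9.29 on day 0 to 12.66 and 12.78 on day 7 and 13.22 to 13.30 later, and in the feeder arm from 9.07 to 10.56 on day 7 and then to 13.02 and 13.09. The pluripotency gene Nanog stood at 13.92 on day 0 and 10.20 on day 7 without feeders, but at 13.35 and 13.29 with them, so the arms differed in this marker on day 7. The mean of 10 fibroblast markers was 10.26 on the feeder day 0 array, 9.15 on day 7 and 8.43 and 8.31 later, against 8.04 to 8.25 on the feeder-free arrays. In such bulk samples, fewer cells of a type and less RNA per cell cannot be told apart.

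From day 0 to day 7, cholesterol synthesis transcripts fell. The fit over both cultures models each gene by day and culture, with 1 change between days shared by both cultures. In it, 6 of the 7 measured genes were lower at an adjusted p under 0.05 and none was higher. Over all genes 9.27% were lower. Dhcr7, Sqle and Fdft1 fell to 46.1%, 52.9% and 54.8% of their day 0 level, Cyp51 to 66.3%, Fdps to 75.2% and Idi1 to 79.7%. Lss stood at 102% and did not pass. The log2 change of Sqle was 1.15 ± 0.19 higher on feeders than without them, so its 52.9% describes neither arm. The median change of the 7 was -0.59 on the log2 scale, against -0.04 over all genes. Because the members were chosen with earlier results of these data known, the count and median describe them and do not test the set. Within each culture taken alone, 6 of the 7 were lower on day 7 than on day 0, where 57.9% of all genes were lower without feeders and 54.0% with them.

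**Figure D1:**
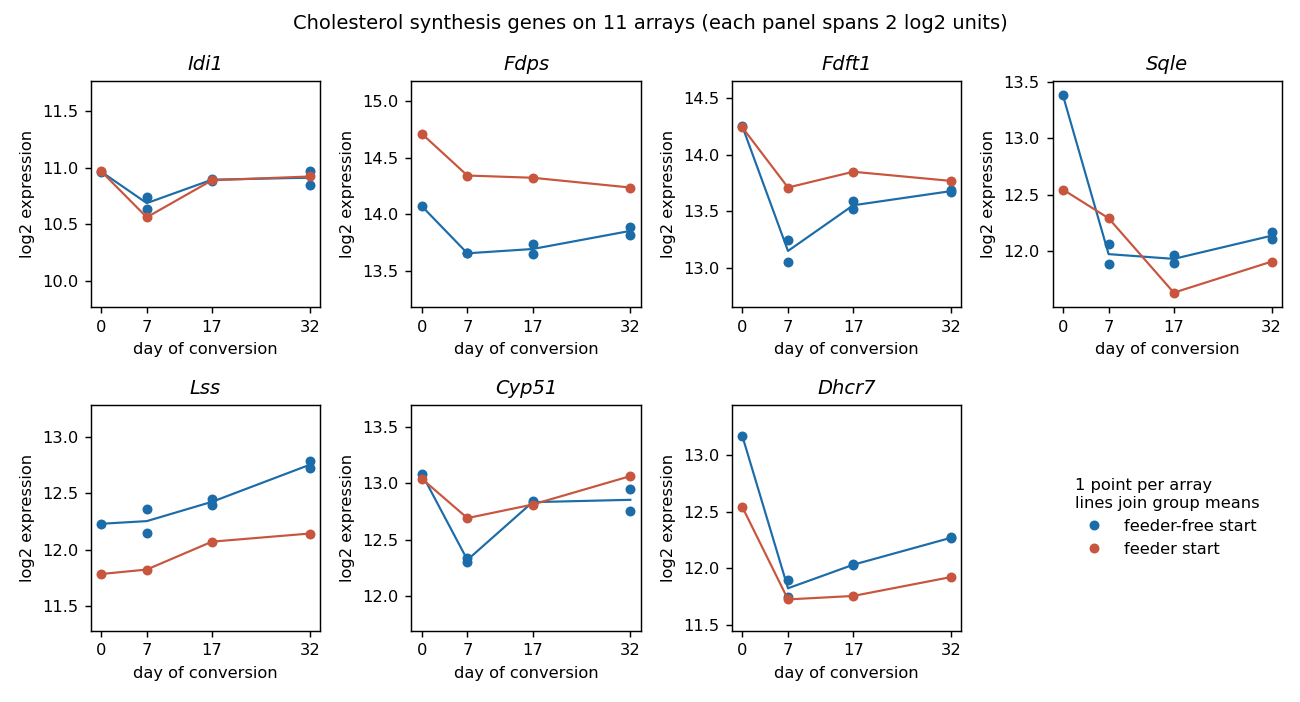
Log2 level of each of the 7 measured genes (vertical axis) against day of conversion (horizontal axis), with 1 point per array, feeder-free in blue and feeder in red, and lines through group means; each panel spans the same number of log2 units. Levels drop between day 0 and day 7 in 6 panels, the change of Lss over these days did not pass the test (0.03 ± 0.10), and Sqle on feeders is lowest at 11.64 on day 17.

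Of the 7 genes, Idi1 spanned the fewest log2 units over the 11 arrays, 0.41. Idi1, the isomerase that makes dimethylallyl diphosphate, read 10.97 on day 0, 10.64 and 10.74 on day 7, 10.89 and 10.91 on day 17, and 10.97 and 10.85 on day 32 in the feeder-free arm. On feeders it read 10.97, 10.56, 10.89 and 10.92 on the same days. All 3 day 7 arrays were below every other array, and days 17 and 32 came back close to day 0. The change to day 7 was -0.33 ± 0.08 (SE, adjusted p = 0.0318), and that from day 7 to day 32 was 0.27 ± 0.07 (adjusted p = 0.0386). By day 32 Idi1 differed from day 0 by -0.06 ± 0.08, which did not pass (adjusted p = 0.669; 95% interval -0.25 to 0.13).

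Fdps, farnesyl diphosphate synthase, was 14.07 without feeders on day 0, then 13.65 and 13.66 on day 7, 13.64 and 13.74 on day 17, and 13.89 and 13.82 on day 32. With feeders it was 14.71, 14.34, 14.32 and 14.24. The day 0 array was the highest of its arm in both cultures, and every feeder array lay above every feeder-free array. Its change to day 7 was -0.41 ± 0.10 (adjusted p = 0.0235). It did not pass from day 7 to day 32 (0.10 ± 0.09, adjusted p = 0.466), and Fdps was still lower on day 32 than on day 0 by -0.31 ± 0.10 (adjusted p = 0.0358). RefSeq names 5 pseudogenes after Fdps and 1 after Idi1, and the table does not say how probes shared with such copies were treated, so levels of both genes are less certain.

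The squalene steps come next; genes were not tested against each other. Fdft1, squalene synthase, which commits farnesyl diphosphate to sterols, was 14.25 on day 0 without feeders, 13.05 and 13.24 on day 7, 13.52 and 13.59 on day 17, and 13.69 and 13.67 on day 32. With feeders it was 14.24, 13.71, 13.85 and 13.77. The cultures began together, were furthest apart on day 7, when the feeder array was 0.56 higher, and lay within 0.09 of each other on day 32. By day 7 Fdft1 had changed by -0.87 ± 0.13 (adjusted p = 0.00555). The later change of 0.37 ± 0.12 to day 32 did not pass (adjusted p = 0.0639), and Fdft1 remained below day 0 by -0.50 ± 0.13 (adjusted p = 0.0223).

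Sqle, squalene epoxidase, a rate-controlling step of the sterol branch, was 13.38 on day 0 without feeders, 11.89 and 12.06 on day 7, 11.97 and 11.90 on day 17, and 12.17 and 12.11 on day 32. With feeders it was 12.55, 12.29, 11.64 and 11.91. It spanned 1.74 log2 units over the 11 arrays, more than any of the other measured members. In the feeder-free arm all the later arrays lay far below day 0, while on feeders the drop came mostly between days 7 and 17. Over both cultures the change to day 7 was -0.92 ± 0.21 (adjusted p = 0.0216). Sqle did not pass from day 7 to day 32 (-0.02 ± 0.19, adjusted p = 0.954; 95% interval -0.44 to 0.40) and on day 32 was lower than on day 0 by -0.94 ± 0.21 (adjusted p = 0.00917).

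Lss, lanosterol synthase, which folds squalene epoxide into the sterol ring, did not follow the others. It was 12.23 on day 0 without feeders, 12.15 and 12.36 on day 7, 12.45 and 12.40 on day 17, and 12.78 and 12.72 on day 32. With feeders it was 11.79, 11.83, 12.07 and 12.15. The day 0 and day 7 arrays of each arm lay together, and days 17 and 32 lay above them. The change to day 7 was 0.03 ± 0.10 (adjusted p = 0.901; 95% interval -0.20 to 0.25), and with each array centred on the median of its genes it turned to -0.034. Lss then rose from day 7 to day 32 by 0.44 ± 0.09 (adjusted p = 0.0131), to 0.47 ± 0.10 above day 0 (adjusted p = 0.00709), the only measured member called higher on day 32 than on day 0.

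Of the post-lanosterol enzymes, Cyp51 recovered and Dhcr7 did so in part. Cyp51, the lanosterol demethylase, was 13.08 on day 0 without feeders, 12.30 and 12.34 on day 7, 12.82 and 12.84 on day 17, and 12.95 and 12.75 on day 32. With feeders it was 13.04, 12.69, 12.81 and 13.06. The 3 day 7 arrays were the lowest of the 11, and the feeder array of day 32 reached its day 0 level. Cyp51 changed by -0.59 ± 0.12 to day 7 (adjusted p = 0.0137), followed by 0.38 ± 0.10 to day 17 (adjusted p = 0.0467) and 0.48 ± 0.10 to day 32 (adjusted p = 0.0179), both from day 7. Its day 32 level differed from day 0 by -0.12 ± 0.12, which did not pass (adjusted p = 0.519; 95% interval -0.38 to 0.15).

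Dhcr7, which makes cholesterol from its last precursor in this route, was 13.17 on day 0 without feeders, 11.75 and 11.90 on day 7, 12.04 and 12.02 on day 17, and 12.27 and 12.27 on day 32. With feeders it was 12.54, 11.72, 11.75 and 11.92. Both day 0 arrays were above all 9 later arrays, and the day 7 array or arrays were the lowest of each arm. Dhcr7 changed by -1.12 ± 0.12 to day 7 (adjusted p = 0.00104). It rose by 0.36 ± 0.10 from day 7 to day 32 (adjusted p = 0.0448), and remained -0.75 ± 0.12 from day 0 (adjusted p = 0.00184), which is 59.3% of its starting level.

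The fall rests in part on the feeder-free day 0 array, the only one of its group. Without it only Dhcr7 passed from day 0 to day 7 (-0.91, adjusted p = 0.00829), and again only Dhcr7 from day 0 to day 32 (-0.55, adjusted p = 0.0233). Without the first feeder-free array of day 7, Fdft1, Cyp51 and Dhcr7 passed to day 7, and they were also the ones left with no culture term. Over the 23 alternatives run, the fall to day 7 kept an adjusted p under 0.05 in 23 for Dhcr7, in 22 for Fdft1 and Cyp51, in 18 for Sqle, in 17 for Fdps and in 11 for Idi1.

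**Figure D2:**
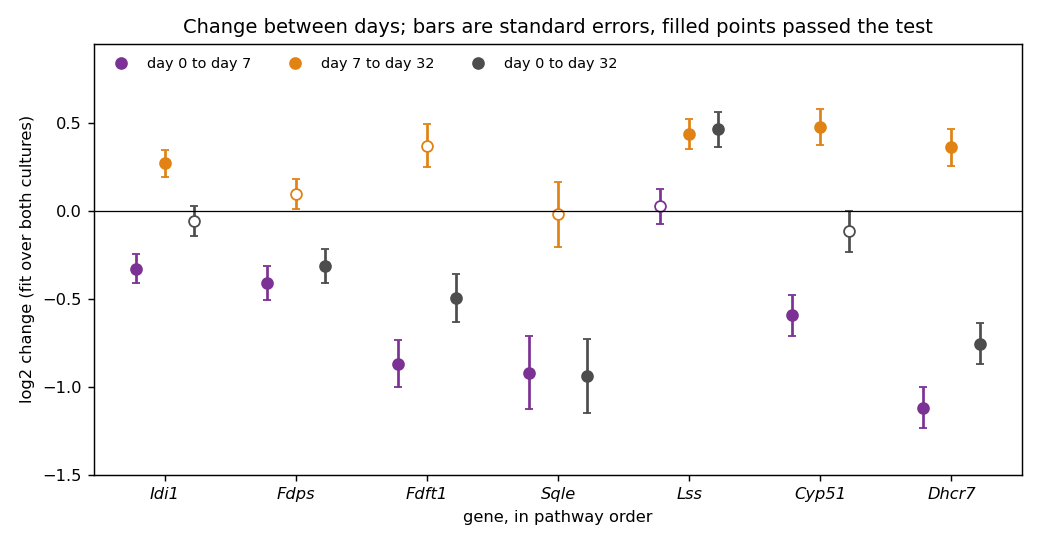
Log2 change of each gene in the fit over both cultures (vertical axis), for day 0 to day 7, day 7 to day 32 and day 0 to day 32, with genes in pathway order (horizontal axis); bars are standard errors and filled points had an adjusted p under 0.05. The day 0 to day 7 points lie between -1.12 and -0.33 for 6 genes, and Lss alone is above 0 from day 0 to day 32.

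Some of the members rose after day 7. In the fit over both cultures, Idi1, Lss, Cyp51 and Dhcr7 rose from day 7 to day 32, 4 of 7, where 11.9% of all genes were higher. Fdft1, Fdps and Sqle did not pass in this fit. The median change of the 7 was 0.36, against 0.09 over all genes. Only Cyp51 passed from day 7 to day 17, 1 of 7, against 9.1% of all genes, which is near the background. From day 17 to day 32 limma called 0 of the 7, as it called 0% of all genes. At an unadjusted p under 0.05 Lss was the only member, with a change of 0.24 ± 0.09. Here and below, no share of all genes is given at an unadjusted threshold, so members named at it are not set beside a background. The contrasts to and from day 7 share the day 7 arrays, so the fall and the rise are not independent. The later contrast is also the less stable: without the first feeder-free array of day 32, or with no culture term, 0 of the 7 passed; without the feeder array of day 32, or without the first feeder-free array of day 7, Lss was the only one left. Leaving out either feeder-free array of day 17, the second of day 32 or the feeder array of day 17 left Lss and Cyp51, as did a further quantile normalization, whose count over all genes was 2183 against 2535.

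At the end of the course, 4 of the 7 genes were lower than on day 0 (Fdps, Fdft1, Sqle and Dhcr7) and 1 was higher (Lss). Over all genes 13.7% were lower and 17.4% higher, 31% in all. Sqle stood at 52.2% of its day 0 level, Dhcr7 at 59.3%, Fdft1 at 70.9% and Fdps at 80.4%, while Lss was at 138%. Idi1 at 96.2% and Cyp51 at 92.3% did not pass. In the fit over both cultures, Idi1 and Cyp51 fell by day 7 and rose again by day 32. Dhcr7 fell, rose and stayed below day 0. Fdps, Fdft1 and Sqle fell with no later rise that passed in this fit, though Fdft1 rose in the feeder-free arm, as given below. Neither the fall nor the rise of Idi1 passed within either arm alone. Lss had no change to day 7 that passed and then rose above day 0. Without the feeder array of day 32, Sqle, Lss and Dhcr7 kept an adjusted p under 0.05.

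The cultures were then compared. Averaged over days, Fdps was higher on feeders by 0.58 ± 0.07 (adjusted p = 0.00024), and Lss and Dhcr7 were lower, with differences of -0.46 ± 0.07 (adjusted p = 0.000971) and -0.32 ± 0.08 (adjusted p = 0.0163). These are 3 of 7 members where 32.7% of all genes differed, so the count is near the background. The Fdps gap was 0.64 on day 0, 0.69 on day 7, 0.63 on day 17 and 0.38 on day 32. The Lss gap ran from -0.35 to -0.61 over the 4 days. The fibroblast marker mean ran from 10.26 to 8.31 on the feeder arrays, and on day 32 it was 8.31 against 8.18 and 8.24. Its part in the Fdps and Lss gaps was not tested. The starting cultures also differed in PD0325901, BMP4 and growth surface, which cannot be told apart from the feeders here.

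A fit with a mean for each culture and day gave the change within each arm; it takes its spread from the 3 feeder-free pairs, and the lone arrays are assumed to vary like them. Without feeders, 5 of 7 genes fell to day 7, where 20.7% of all genes did. The changes were -1.40 ± 0.13 for Sqle, -1.35 ± 0.12 for Dhcr7, -1.10 ± 0.13 for Fdft1, -0.76 ± 0.13 for Cyp51 and -0.42 ± 0.12 for Fdps. Adjusted p-values ran from 6.74e-07 for Sqle to 0.0145 for Fdps. With feeders 2 of 7 fell, where 7.49% of all genes did: Dhcr7 (-0.82 ± 0.14, adjusted p = 0.00127) and Fdft1 (-0.53 ± 0.15, adjusted p = 0.0261). Idi1 (-0.41), Fdps (-0.37), Cyp51 (-0.35) and Sqle (-0.25) did not pass there. In both arms, which share no array, the sign was negative for the same 6 genes. The genes were chosen with earlier results of these data known, so the shared sign is a description and not a test.

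The difference between the arms was itself tested. For Sqle the change to day 7 was 1.15 ± 0.19 higher on feeders (adjusted p = 0.000563), the only one of the 7 to pass, where 22% of all genes differed. The count of members was thus not above the background. The difference was 0.57 ± 0.20 for Fdft1 (adjusted p = 0.0522), 0.53 ± 0.19 for Dhcr7 (adjusted p = 0.0622) and 0.41 ± 0.19 for Cyp51 (adjusted p = 0.165), which did not pass. Fdft1 and Dhcr7 did pass in 5 of the 17 alternatives, among them the further quantile normalization (0.55 for each, adjusted p = 0.019 and 0.0208) and a centring of each array on the median of its genes (0.66 and 0.62). For Idi1, Fdps and Lss the difference lay between -0.13 and 0.05, with 95% intervals from -0.54 at the lowest to 0.45 at the highest. The Sqle gap, feeder minus feeder-free, was -0.83 on day 0, 0.32 on day 7, -0.30 on day 17 and -0.23 on day 32. On the feeder arm it fell from day 7 to day 17, with a change of -0.66 ± 0.15 (adjusted p = 0.003), where 12.6% of all genes were lower, while without feeders that change was -0.04 ± 0.10 (adjusted p = 0.806). The difference of -0.62 ± 0.18 between the arms passed (adjusted p = 0.0262), as for 19.7% of all genes. Nanog, at 13.29 on the feeder array of day 7 and 7.82 on day 17, and the hypoblast marker Gata4, at 11.20 and 14.37, moved over the same interval; their part was not tested.

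**Figure D3:**
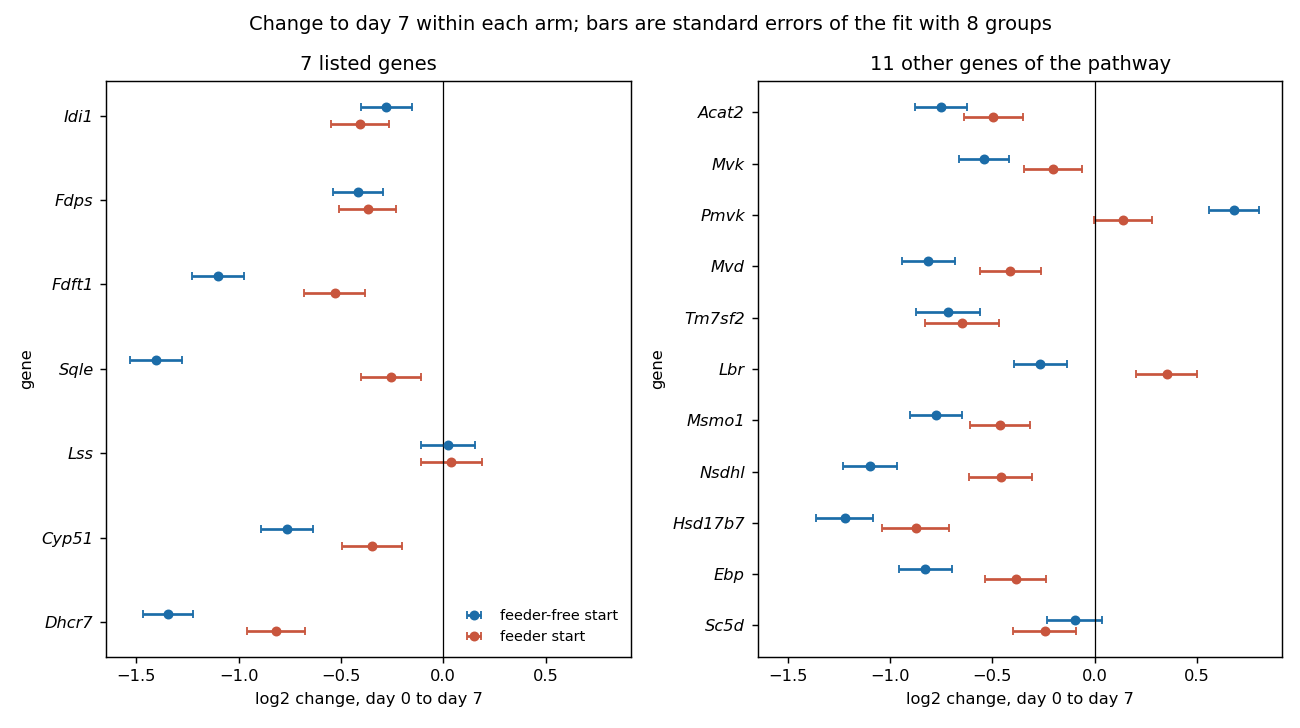
Log2 change from day 0 to day 7 (horizontal axis) within the feeder-free arm (blue) and the feeder arm (red) for the 7 measured genes (left) and 11 other genes of the pathway (right); bars are standard errors of the fit with 8 groups. Sqle shows the widest gap between arms among the 7, at -1.40 and -0.25, and Pmvk lies above 0 in both arms.

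In the feeder-free arm, whose arrays also enter the fit over both cultures, some members rose after day 7. Lss is counted among them, although it had no fall to day 7 that passed. Between days 7 and 32, Fdft1 (0.53 ± 0.10, adjusted p = 0.00181), Lss (0.50 ± 0.11, adjusted p = 0.00308), Cyp51 (0.53 ± 0.10, adjusted p = 0.00171) and Dhcr7 (0.45 ± 0.10, adjusted p = 0.00454) rose, 4 of 7, where 17.5% of all genes did. All 7 were higher on day 32 than on day 7 by group mean, where 66.4% of all genes were. In the feeder arm limma called 0 of 7 from day 7 to day 32, where 32.3% of all genes were called. At an unadjusted p under 0.05, Idi1 (0.36), Cyp51 (0.37) and Sqle (-0.38) differed, and the 32.3% is not a like measure for them. The test of the difference between arms over these days passed for Sqle (-0.55 ± 0.18, adjusted p = 0.0448), where 21% of all genes differed, and not for the other members, of which Fdft1 came nearest (-0.47 ± 0.18, adjusted p = 0.0865).

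Other intervals within the arms showed where each culture lost or regained these transcripts. Without feeders, Fdft1 (0.40 ± 0.10, adjusted p = 0.0122) and Cyp51 (0.51 ± 0.10, adjusted p = 0.00271) had already risen between days 7 and 17, 2 of 7, where 16.5% of all genes rose. Between days 17 and 32 limma called 0 of 7 in either arm, where it called 7.32% of all genes without feeders and 1.54% with them; at an unadjusted p under 0.05 Lss (0.33) and Dhcr7 (0.24) differed without feeders, and no member did with them. Against day 0, the feeder-free arrays of day 32 had 4 of 7 genes called, where 39.4% of all genes were: Sqle (-1.24 ± 0.13), Dhcr7 (-0.90 ± 0.12) and Fdft1 (-0.57 ± 0.13) were lower and Lss (0.52 ± 0.13) was higher. The feeder array of day 32 also had 4 of 7 called, where 33.7% of all genes were, all lower: Sqle (-0.64 ± 0.15), Dhcr7 (-0.62 ± 0.14), Fdps (-0.48 ± 0.14) and Fdft1 (-0.47 ± 0.15). Sqle, Dhcr7 and Fdft1 thus ended below their start in both cultures. The shares of 39.4% and 33.7% count calls in either direction, so they are not a like measure for genes that were all lower. The arms' changes from day 0 to day 32 differed for 0 of the 7 by limma's test, where 10.6% of all genes differed; Sqle was the only member at an unadjusted p under 0.05, with a difference of 0.60 ± 0.19.

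The other genes of the pathway were taken from a list of 11 measured genes. From day 0 to day 7, 7 of 11 fell and 0 rose, against 9.27% and 6.74% of all genes, with a median change of -0.64. Those that changed most were Hsd17b7 (-1.02 ± 0.18), Nsdhl (-0.83 ± 0.14) and Tm7sf2 (-0.68 ± 0.13), which work between lanosterol and cholesterol, and Mvd (-0.67 ± 0.13), which makes isopentenyl diphosphate. The 4 that did not pass, named after their values were seen, were Mvk (-0.37), Sc5d (-0.16), Lbr (-0.05) and Pmvk (0.47 ± 0.14, adjusted p = 0.0503). Pmvk, phosphomevalonate kinase, and Lss were the measured genes of the pathway whose change had a positive sign, which for Lss turned under centring. Between days 7 and 32, 4 of the 11 rose, where 11.9% of all genes did, and 0 fell; among those that rose were Nsdhl (0.44 ± 0.13) and Tm7sf2 (0.38 ± 0.11). On day 32 Hsd17b7 was still below day 0 (-0.81 ± 0.18, adjusted p = 0.00872), and Pmvk was above it (0.71 ± 0.14, adjusted p = 0.00493).

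Of the 13 measured genes of sterol sensing and lipoprotein uptake, 4 fell to day 7 and 0 rose, against 9.27% and 6.74% of all genes, with a median of -0.13. Srebf2 read 13.22 on day 0 without feeders, 12.72 and 12.82 on day 7, 12.96 and 13.09 on day 17, and 13.10 and 13.02 on day 32, and with feeders 13.25, 12.97, 13.14 and 13.10. Its day 7 arrays were the lowest of each arm, and no value was as high as day 0 afterwards. It changed by -0.39 ± 0.09 to day 7 (adjusted p = 0.0222), and the later 0.24 ± 0.08 to day 32 did not pass (adjusted p = 0.0674). Insig2 fell to day 7, with a change of -0.34 ± 0.10 (adjusted p = 0.043), while Insig1 (-0.01 ± 0.18, adjusted p = 0.989) and Scap (0.09 ± 0.10, adjusted p = 0.624) did not pass. Insig1 lay between 13.35 and 13.85 on all feeder-free arrays, and on feeders read 12.70 and 12.44 on days 0 and 7 and 13.49 and 13.31 on days 17 and 32. The other called genes of the list were Mbtps2, a protease that frees SREBP (-0.49 ± 0.10), and Scarb1, a lipoprotein receptor (-0.51 ± 0.12). Between days 7 and 32, 2 of the 13 rose, a share near the 11.9% of all genes: Lipa, the lysosomal lipase that frees cholesterol from lipoproteins (0.62 ± 0.18), and Mbtps1 (0.31 ± 0.08). Srebf1 had no named row and is not analysed here.

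Fatty acid synthesis genes, which SREBP proteins also activate, gave 6 of 12 lower and 0 higher on day 7, against 9.27% and 6.74% of all genes, with a median of -0.49. The largest changes were in the desaturases Scd (-1.59 ± 0.36) and Scd2 (-1.06 ± 0.12), then Fads1 (-0.81 ± 0.22) and Fasn, the fatty acid synthase (-0.61 ± 0.14). Without and with feeders these were -2.33 and -0.48 for Scd, -1.29 and -0.76 for Scd2, -0.44 and -1.22 for Fads1, and -0.92 and -0.23 for Fasn. Some genes of the list, such as Fads2 (1.95 and -0.62), had opposite signs in the arms. Between days 7 and 32, 2 of the 12 rose, Scd2 (0.59 ± 0.11) and Acaca (0.50 ± 0.13), a share near the 11.9% of all genes. Other branches that use mevalonate products gave a median of 0.03 over 9 genes to day 7, with 1 higher, Rabggta (0.50 ± 0.11), and 1 lower, Fntb (-1.34 ± 0.25), both subunits of enzymes that attach lipids to proteins; these counts are near the 6.74% and 9.27% of all genes. Of 11 genes of sterol efflux and storage 2 rose, where 6.74% of all genes did, the exporter Abcg1 (0.96 ± 0.12) and the esterifying enzyme Soat1 (0.76 ± 0.14), 0 fell, and the median was 0.04. The member median of -0.59 was thus on the side of the other cholesterol genes (-0.64) and fatty acid genes (-0.49), and away from the branch and efflux lists; these lists were not tested against each other.

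**Figure D4:**
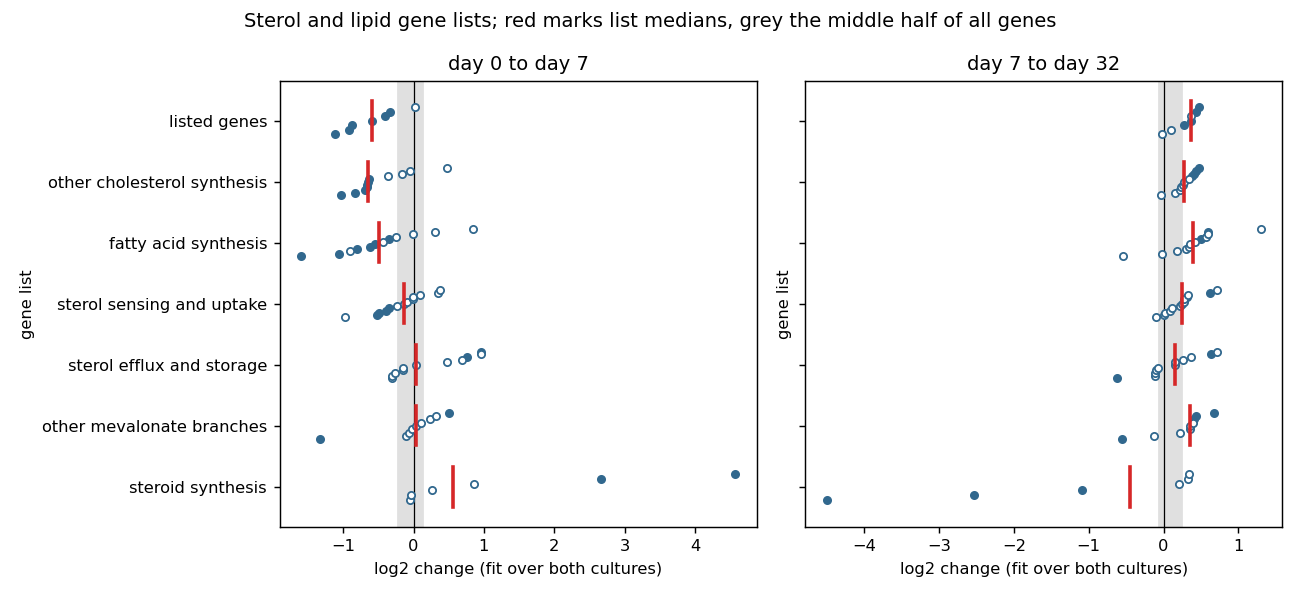
Log2 change in the fit over both cultures (horizontal axis) of each gene of 7 lists (vertical axis), for day 0 to day 7 (left) and day 7 to day 32 (right); filled points had an adjusted p under 0.05, red bars are list medians and grey spans the middle 50% of all genes. The member and other cholesterol synthesis medians, -0.59 and -0.64, lie left of the grey band in the left panel and at 0.36 and 0.28, right of it, in the right panel.

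The members did not all share a pattern. Over the 8 group means, Dhcr7 correlated with the mean of the other members at 0.87, Fdft1 at 0.85, Cyp51 at 0.76, Sqle at 0.68 and Idi1 at 0.62, while Fdps was at 0.21 and Lss at -0.25. The mean of all 7, each centred on its own mean, was highest on day 0 without feeders (0.43) and with them (0.24), and lowest on day 7 without feeders (-0.33). Among other genes above background, those whose 8 group means were most like that mean were Tbx3 (Pearson correlation 0.99), Mras (0.98), Pi4ka (0.97), Zfp763 (0.97), Rapgef4 (0.97) and Ocrl (0.97), followed by Thoc3, Dnal1, Rassf2 and Alms1 (each 0.96). All the points share arrays, and the ranking is a description. Tbx3 changed from day 0 to day 7 by -1.34 without feeders and -0.50 with them, and Mras by -1.74 and -0.74.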

How the data were processed

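The authors hybridised total RNA to Rat Gene 1.0 ST arrays, and the deposited table gives 29214 probe sets as log2 levels. RMA is the tool that the submitters' processing notes name; its version and options are not given in the sources used here. Probe sets were named from GEO's platform annotation: 15310 have 1 gene symbol, 323 several and 13581 none, and 15279 matched a RefSeq gene of GRCr8. For 527 of the 14506 genes with more than 1 row, the row with the highest mean stood for the gene. No dim gene was left out.

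Tests used limma 3.58.1 in R 4.3.3 (lmFit and eBayes) with Benjamini-Hochberg adjustment over all 14506 genes and a threshold of 0.05. The main fit had day and culture as terms (6 residual degrees of freedom); a fit with 8 groups (3 residual degrees of freedom) gave changes within cultures and their difference. The number of arrays limits the precision. Standard errors and 95% intervals come from these fits.

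Named genes were the members, the sensing genes Srebf1, Srebf2, Insig1, Insig2 and Scap, up to 4 called genes of each list with the largest change, and the 10 genes most like the members' mean. Pluripotency, hypoblast, trophoblast and fibroblast markers described the cells. Members and lists were chosen with earlier results of these data known. Alternatives were the variance model, the rows tested and kept, normalization, centring, a filter on dim genes, a minimum change, array weights, the design, a replicate block, and leaving out each array. Olfactory receptor symbols in a second spelling were added to the background after seeing the data, which moved its bound from 7.90 to 8.09.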

Additional observations from a re-analysis of the deposited data

Results flagged for a closer look

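The change of Sqle, squalene epoxidase, differed between the 2 starting cultures in 3 tests of the difference itself (feeder minus feeder-free, limma, adjusted over all genes). It was the only one of the 7 members to pass in each. Over all genes 22%, 19.7% and 21% differed from day 0 to day 7, day 7 to day 17 and day 7 to day 32. The count of members was thus not above the background. From day 0 to day 7 the difference was 1.15 ± 0.19 (SE, adjusted p = 0.000563), and its adjusted p stayed under 0.05 in every alternative run. From day 7 to day 17 it was -0.62 ± 0.18 (adjusted p = 0.0262), which no longer passed without the first feeder-free array of day 7 (-0.53, adjusted p = 0.0512) or of day 17 (-0.58, adjusted p = 0.06), or with every row of the table tested (adjusted p = 0.0732). From day 7 to day 32 it was -0.55 ± 0.18 (adjusted p = 0.0448), which no longer passed without the first feeder-free array of day 7 (-0.46, adjusted p = 0.0773) or without the first or the second of day 32 (-0.52, adjusted p = 0.109, and -0.58, adjusted p = 0.0712), and passed in 13 of 18 alternatives. The feeder arm has 1 array a day, and the 3 tests share the day 7 arrays. Leaving out the only array of a group removes the contrast, so such arrays were kept in every alternative. For the change to day 7 these were both day 0 arrays and the feeder array of day 7. How far the difference rests on them was not tested. The mean of the fibroblast markers, 10.26 and 9.15 on the feeder arrays of days 0 and 7, moved with the first of these differences, and its part was not tested.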

How the results depend on the processing

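Of the members' changes over all comparisons and alternatives, those that passed at first kept their direction throughout; 389 stayed past the threshold and 58 did not under another setting, and 391 stayed and 63 did not when an array was left out. Counts of members passing that moved by over 1.5 times, with the original count in brackets, were as follows; smaller moves also occurred, such as 3 (2) on feeders to day 7 with Idi1 gained under centring, a further quantile normalization or a filter on dim genes, and 5 (4) with Lss gained and 3 (4) with Fdft1 lost on feeders from day 0 to day 32. With every named or unnamed row tested they were 0 (1) from day 7 to day 17, 2 (4) from day 7 to day 32, 1 (2) on feeders to day 7, and 0 (1) for the difference between arms over each of those later intervals. A further quantile normalization gave 0 (1) from day 7 to day 17, 2 (4) to day 32, 1 (2) without feeders from day 7 to day 17, 1 (0) there from day 17 to day 32, 1 (0) on feeders from day 7 to day 32, and for the difference between arms 3 (1) to day 7, 2 (1) from day 7 to day 32 and 1 (0) from day 0 to day 32. Centring on the median gave 0 (1) from day 7 to day 17, 1 (0) in the same within-arm intervals, and 3 (1), 2 (1), 2 (1) and 1 (0) for the difference to day 7, from day 7 to days 17 and 32, and from day 0 to day 32. Leaving out the dimmest 25% of genes gave 1 (0) and 3 (0) in those within-arm intervals and 3 (1), 2 (1) and 1 (0) for the difference to day 7, from day 7 to day 32 and from day 0 to day 32. eBayes with trend and robust gave 1 (0) without feeders from day 17 to day 32, 5 (2) and 3 (0) on feeders to day 7 and from day 7 to day 32, and 4 (1), 2 (1), 2 (1) and 1 (0) for the differences. Array weights gave 2 (1) from day 7 to day 17 and 1 (0) in both within-arm intervals and for the difference from day 0 to day 32. Asking for a change of at least 0.5 gave 0 (1), 0 (4) and 2 (5) over day 7 to 17, day 7 to 32 and day 0 to 32, 1 (3) between cultures, 1 (2) and 2 (4) without feeders from day 7 to days 17 and 32, and 2 (4) on feeders from day 0 to day 32; it removes small changes by its construction. The mean of the arms from the fit with 8 groups gave 4 (1) from day 7 to day 17 and 5 (3) between cultures, and the feeder-free arrays alone gave 2 (1) from day 7 to day 17. With no culture term the counts were 3 (6) to day 7, 0 (1), 0 (4) and 2 (5) from day 0 to day 32. The causes of these moves were not tested. TCACCCC in place of TCACNCC was in 0 (1) of the 6 promoters, and ranking likeness over the 11 arrays kept 6 of the 10 genes.

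The replicate numbers of the feeder-free arrays did not pair them: the differences between the first and second array correlated between days at 0.03, -0.20 and -0.10. With the replicate block, 3 (6) members passed to day 7, 0 (1) from day 7 to day 17, 2 (4) from day 7 to day 32 and 0 (1) for the difference between arms over that interval, and 1325 genes of all passed to day 7, against 2322, and 984 from day 7 to day 17, against 1850. The further quantile normalization gave 1197 over the latter. Centring shifted the median of all genes by more than 0.1 on feeders from day 7 to day 17, from 0.07 to -0.0473, and in the difference between arms, from -0.02 to -0.13 over days 7 to 17 and from 0.0047 to -0.10 over days 7 to 32.

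Leaving out each array in turn, the count ranged from 1 to 6 from day 0 to day 7, 0 to 2 from day 7 to day 17, 0 to 5 from day 7 to day 32, 1 to 5 from day 0 to day 32, 2 to 4 between cultures, 1 to 2 without feeders from day 7 to day 17, and 0 to 1 on feeders from day 7 to day 32. For the difference between arms it ranged from 1 to 3 to day 7, 0 to 1 from day 7 to day 17, 0 to 2 from day 7 to day 32 and 0 to 1 from day 0 to day 32. It ranged from 4 to 5 on feeders from day 0 to day 32 and did not move in the other within-arm intervals. For within-arm changes and their differences, the only array of a group could not be left out, because the contrast needs it. Those ranges therefore do not show how far the counts rest on the lone arrays. Changes that turned sign had not passed at first. Under centring Lss to day 7 turned to -0.0343 over both cultures and -0.0698 without feeders, Fdps from day 7 to day 17 to -0.0233, Dhcr7 and Fdft1 on feeders from day 7 to days 17 and 32 to -0.0873 and -0.0021, Cyp51 on feeders from day 0 to day 32 to -0.0401, and the difference between arms to -0.0380 for Lss from day 7 to day 17 and -0.0101 for Idi1 from day 0 to day 32. Under the further quantile normalization Fdps turned to -0.13 and -0.0357 from day 7 to days 17 and 32 and to -0.11 without feeders to day 17, Dhcr7 and Fdft1 on feeders to -0.10 and -0.0735, Cyp51 to -0.0873, and the differences to -0.0588 for Lss to day 7 and -0.0745 for Idi1 from day 0 to day 32. Sqle from day 7 to day 32 turned to 0.15 with array weights and 0.16 with feeder-free arrays alone. With each array left out in turn, the changes whose sign turned ranged, over both cultures, from -0.0215 to 0.0845 for Lss to day 7, -0.00343 to 0.0668 for Fdps from day 7 to day 17, -0.00185 to 0.0629 for Idi1 from day 17 to day 32, -0.16 to 0.23 for Sqle from day 7 to day 32, -0.22 to 0.00713 for Cyp51 from day 0 to day 32 and -0.0472 to 0.00287 for Idi1 between cultures. Without feeders they ranged from -0.0826 to 0.13 for Lss to day 7, -0.0101 to 0.0857 for Fdps and -0.129 to 0.0444 for Sqle from day 7 to day 17, -0.0426 to 0.0783 for Idi1 and -0.0766 to 0.12 for Cyp51 from day 17 to day 32, and -0.114 to 0.00737 for Idi1 from day 0 to day 32. For the difference between arms they ranged from -0.0899 to 0.12 and -0.0302 to 0.18 for Lss to day 7 and from day 7 to day 17, and -0.0534 to 0.0675 for Idi1 from day 0 to day 32. Most groups hold a lone array, which bounds how finely any of these counts can be read.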

Other observations

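Of 6 listed genes of steroid synthesis, 2 rose to day 7, Star and Cyp17a1, where 6.74% of all genes rose. Star, which carries cholesterol into mitochondria, read 8.69 on day 0 without feeders, 12.25 and 12.24 on day 7, and 8.81 to 9.12 afterwards, and on feeders 8.61, 9.83, 8.71 and 8.79. Cyp17a1, an enzyme of androgen synthesis, read 7.75, then 13.85 and 13.89, then 7.83 to 8.03 without feeders, and 7.65, 9.69, 7.76 and 7.89 with them. Outside day 7 the Cyp17a1 values, 7.65 to 8.03, lay near or under the background bound of 7.90, so the size of its changes is less certain. The day 7 arrays stood above all others of their arm, and most so without feeders. Over both cultures Star changed by 2.66 ± 0.49 (adjusted p = 0.0103) and Cyp17a1 by 4.57 ± 0.88 (adjusted p = 0.0121) to day 7, and by -2.54 ± 0.44 and -4.50 ± 0.78 from day 7 to day 32, when Cyp11a1 also fell (-1.09 ± 0.24, adjusted p = 0.0183). The mean of 7 trophoblast markers moved at the same time, from 9.67 to 11.66 and 11.77 and back to 9.04 to 9.20 without feeders, and from 9.64 to 10.39 and then 9.17 and 9.18 with them; its part in these changes, and in those of the cholesterol genes, was not tested.

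The 2 listed exporters and esterifiers that rose on day 7 parted later. Abcg1 fell again from day 7 to day 32 (-0.62 ± 0.11, adjusted p = 0.0076), while Soat1 was still above day 0 on day 32 (0.65 ± 0.14, adjusted p = 0.00783). Apoe, a lipoprotein component, rose from day 7 to day 32 (0.63 ± 0.18, adjusted p = 0.0433), and Lipa ended above day 0 (0.97 ± 0.20, adjusted p = 0.00672).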
